A study of Mus musculus with 16 samples.

Results

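The BCL-2 family decides whether the outer mitochondrial membrane of a cell stays intact. Its survival proteins (BCL-2, BCL-XL, BCL-W and MCL-1) hold the pore-forming effectors BAX and BAK in check, and the BH3-only proteins (BIM, PUMA, BAD and BID) relieve that restraint or activate the effectors directly, so that cytochrome c is released and caspases are activated. In macrophages, the short-lived MCL-1 and the BH3-only proteins are among the members whose amounts are set by transcription, mRNA turnover and translation during an inflammatory response. The members described here were taken by symbol: *Bcl2*, *Bcl2l1* (BCL-XL), *Bcl2l2* (BCL-W), *Mcl1*, *Bax*, *Bak1*, *Bid*, *Bad*, *Bcl2l11* (BIM) and *Bbc3* (PUMA). All 10 were in the deposited tables, with 26 distinct 3′-UTR regions among the 26892 regions of 14925 genes.

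RIP-seq, the sequencing of RNA that is immunoprecipitated with a protein, was done for CPEB4, which binds cytoplasmic polyadenylation elements (CPEs) in 3′-UTRs, in mouse bone marrow-derived macrophages (BMDMs) (strain given as C57BL/6J 129). Wild-type BMDMs (WT, labelled 76) and BMDMs from full-body *Cpeb4* knockout mice (*Cpeb4*-/-, labelled 73) were used. The labels do not say what these numbers stand for. The cells were left untreated or received lipopolysaccharide (LPS), the endotoxin of Gram-negative bacteria, at 10 ng/ml for 9 h. The precipitate of an antibody against CPEB4 (RIP) and the lysate (Input) of each were sequenced on lanes 7 and 8, and the tables sum both lanes. There was thus 1 library per genotype, treatment and assay. Every test below compares single libraries (2 for a ratio, 4 for a difference of ratios) and not the genotypes or treatments, every interval is a 95% interval that covers counting error only, and no difference has a replicate check.

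The 3′-UTR counts of the 8 libraries summed to 467696 to 2492300 over all rows with a symbol. A read on overlapping or duplicate rows counts more than once in these sums. The 8 macrophage markers summed to a CPM (3′-UTR reads scaled to equal library totals) of 2539 to 3557 in the 4 Inputs, and the listed T cell, B cell, dendritic cell, fibroblast, erythroid and granulocyte markers to at most 9.05 per list. Counts were available for all 4 listed T cell markers and for 1 of 5 granulocyte markers. For the B cell, dendritic cell, fibroblast and erythroid lists they were available for 2 of 3 markers each. *Cpeb4* had 1392 (untreated) and 1920 (LPS) reads in the WT RIPs and 120 and 320 in the *Cpeb4*-/- RIPs. Its reads in the Inputs were 121 and 258 (WT) and 69 and 79 (*Cpeb4*-/-), over a 3′-UTR whose place relative to the deleted exons is not given in the sources used here. The summed 3′-UTR reads came to 27.3% and 31.8% of the authors' library totals in the *Cpeb4*-/- RIPs, against 48.9% and 70.1% in the WT RIPs, so each WT over *Cpeb4*-/- RIP ratio is 0.84 (untreated) or 1.14 (LPS) higher on the log2 scale when the library totals are used. Levels are given as CPM per kb of 3′-UTR, and ratios are on the log2 scale after adding 1 read to each library and scaling to the 3′-UTR totals. A region is called where the chi-square test gave a Benjamini-Yekutieli adjusted p under 0.02 with a log2 ratio over 0.5 in size, or an unadjusted p under 0.02 with a log2 ratio over 1.2 in size, and a gene is called where any of its regions is.

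CPEs are short U-rich motifs, and a CPE close to the polyadenylation signal (AAUAAA or AUUAAA) is the arrangement that cytoplasmic polyadenylation is known for. The members' last polyadenylation signals are shown with the bases before them, because the members differ in this arrangement. Each is the 30-base window that ends 2 bases after the last polyadenylation signal of the region with the most reads, read 5′ to 3′ on the sense strand as DNA from GRCm38.p6 (mm10), with the signal and any CPE in capitals.

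Bcl2l11: tgttcttaatgaaTTTTATataAATAAAac
Bbc3: gatTTTTGTatgtttccttttcAATAAAat
Mcl1: cttctgtttcttctgaagagaaAATAAAcc
Bcl2: ccatgtctgtctgaaaaaataaAATAAAat
Bcl2l1: gaaggtgaaagtgcagttcagtAATAAAtg
Bax: aatggtggcctggggaggcgccAATAAAcc
Bak1: cagagggtgctctgtgtctggaAATAAAct
Bid: tggtagaaatttgtttcttcaaAATAAAag

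*Bcl2l11* and *Bbc3* were the members with a CPE inside this window. The *Bcl2l11* window lies at chr2:128162502-128162531 (+ strand), its CPE ends 3 bases before the signal, and a further CPE ends 21 bases before it. The *Bbc3* window lies at chr7:16318160-16318189 (+ strand), its CPE ends 13 bases before the signal, and a further CPE ends 26 bases before it. In *Mcl1* (chr3:95663136-95663165, + strand) the 3 CPEs were spread over the 3′-UTR and none was in the window. The windows of *Bcl2* (chr1:106538191-106538220), *Bcl2l1* (chr2:152780687-152780716), *Bax* (chr7:45461716-45461745), *Bak1* (chr17:27019827-27019856) and *Bid* (chr6:120893132-120893161), all on the - strand, held no CPE either. The single CPE of *Bax* ended 41 bases before its signal, and *Bid* had CPEs that ended 71 and 53 bases before its signal. The *Bid* signal is followed by a further 280 bases of 3′-UTR, in which its remaining CPE lies. No signal of these letters was found in the *Bad* and *Bcl2l2* regions with the most reads. Other regions of both genes held such signals. The overlapping 2701-base *Bcl2l2* region had 4, the first at bases 2662 to 2667 and the last at bases 2676 to 2681. Its last CPEs lay at bases 2632 to 2637 and 2638 to 2643, shortly before these signals. *Bad* regions of 369, 374 and 203 bases had a signal and no CPE. Of 6594 genes with a signal and at least 80 reads over the 8 libraries, 13.3% had a CPE in the window. The share was 24.2% of the 499 genes whose region with the most reads was called higher in the WT than in the *Cpeb4*-/- RIP of untreated cells, and 6.27% of the 574 called lower. In LPS-treated cells the shares were 19.6% of 823 genes and 5.68% of 950 genes. These shares are descriptions of letters in a window.

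The searched CPEs were TTTTAT with its forms spelled TTTTAAT or TTTTAAAT or TTTTACT or TTTTCAT or TTTTAAGT or else TTTTGT, on the sense strand only and with overlapping matches counted. At least 1 CPE occurs in 83.4% of the 3′-UTRs of 7125 genes with at least 80 reads, so that its presence alone separates few genes. *Bcl2l11* had 8 CPEs in 4218 bases, and 71.7% of the 1006 genes with a 3′-UTR of like length had at least as many. *Bbc3* had 2 CPEs in 971 bases, as many as the median gene of like length, and they ended 50 and 37 bases before its end. *Bcl2* had 8, *Bcl2l2* had 7, *Mcl1* and *Bid* had 3, *Bcl2l1* had 2, *Bax* and *Bak1* had 1 and *Bad* had none. The AU-rich pentamer ATTTA occurred 15 times in *Bcl2*, 8 times in *Mcl1* and 6 times in *Bcl2l11*. At least as many were found in 13.1%, 13.8% and 58.7% of the genes of like length. The pentamer was absent from *Bbc3*, *Bax*, *Bak1*, *Bid* and *Bad*.

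**Figure D1:**
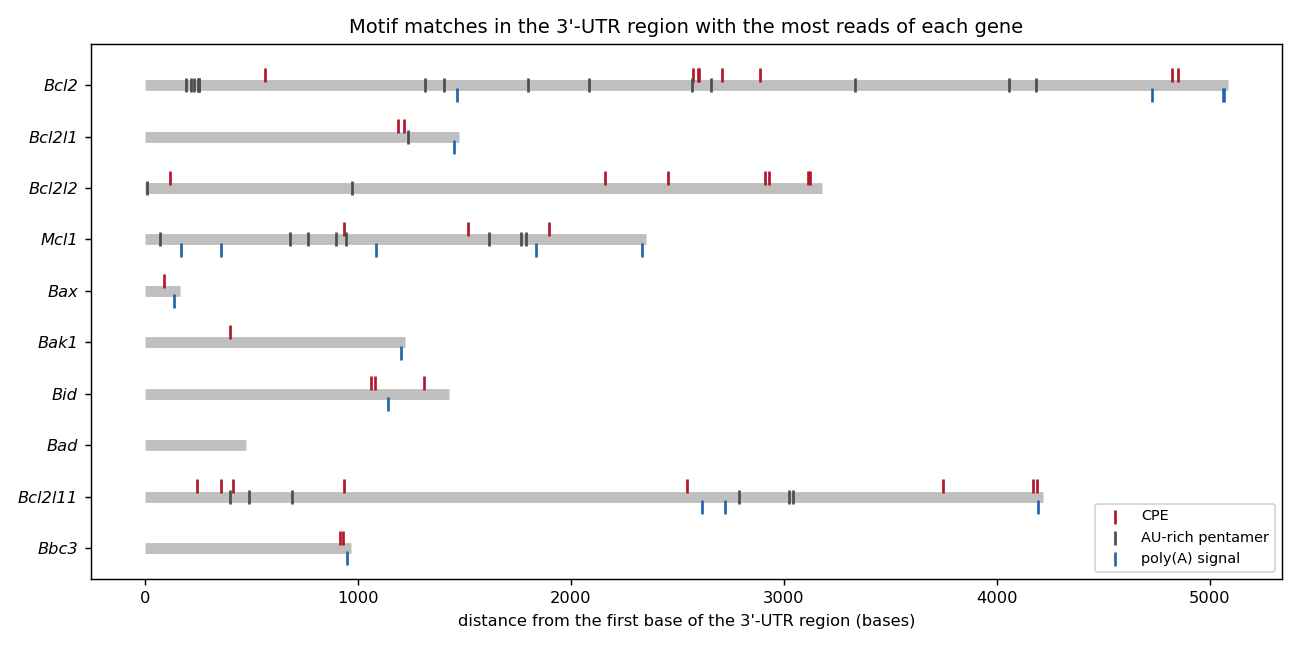
Motif matches in the 3′-UTR region with the most reads of each member. Grey bars show the region, with the distance from its first base in bases on the x axis, and ticks mark CPEs, AU-rich pentamers and polyadenylation signals. CPEs directly before the last signal are seen in *Bcl2l11* and *Bbc3*, whereas those of *Mcl1* lie further upstream.

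The amounts of the family mRNAs in the Inputs covered a wide range. In untreated WT BMDMs, the short *Bax* 3′-UTR had the highest level (425 per kb, interval 334 to 541), followed by *Mcl1* (329), *Bcl2l1* (240) and *Bak1* (171). *Bcl2l11* (85.7), *Bbc3* (84.2) and *Bad* (67.6) came next and their intervals overlapped, as did those of *Bax* and *Mcl1*. *Bcl2l2* (41.7), *Bid* (24.1) and *Bcl2* (3.17, interval 1.92 to 5.24) were lowest, and the intervals of *Bad* and *Bcl2l2* overlapped. In LPS-treated WT BMDMs the order was *Bax* (436), *Bak1* (303), *Mcl1* (263), *Bcl2l1* (212), *Bad* (101), *Bcl2l2* (60.7), *Bbc3* (35.8), *Bcl2l11* (20.5), *Bid* (11.4) and *Bcl2* (0.725). In this library no interval overlapped that of its neighbour in the order. After LPS, *Bak1* thus stood above *Mcl1*, and *Bcl2l11* and *Bbc3* stood below *Bcl2l2*. A read that only touches a region counts in full, which raises the level per kb of short regions, as for *Bax* (167 bases). In the LPS-treated WT Input a 20-base *Bcl2l2* region had 290 per kb (interval 162 to 519), inside a 2701-base region with 66.3. The place of *Bax* above members with longer 3′-UTRs is therefore not a ranking of mRNA amounts.

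**Figure D2:**
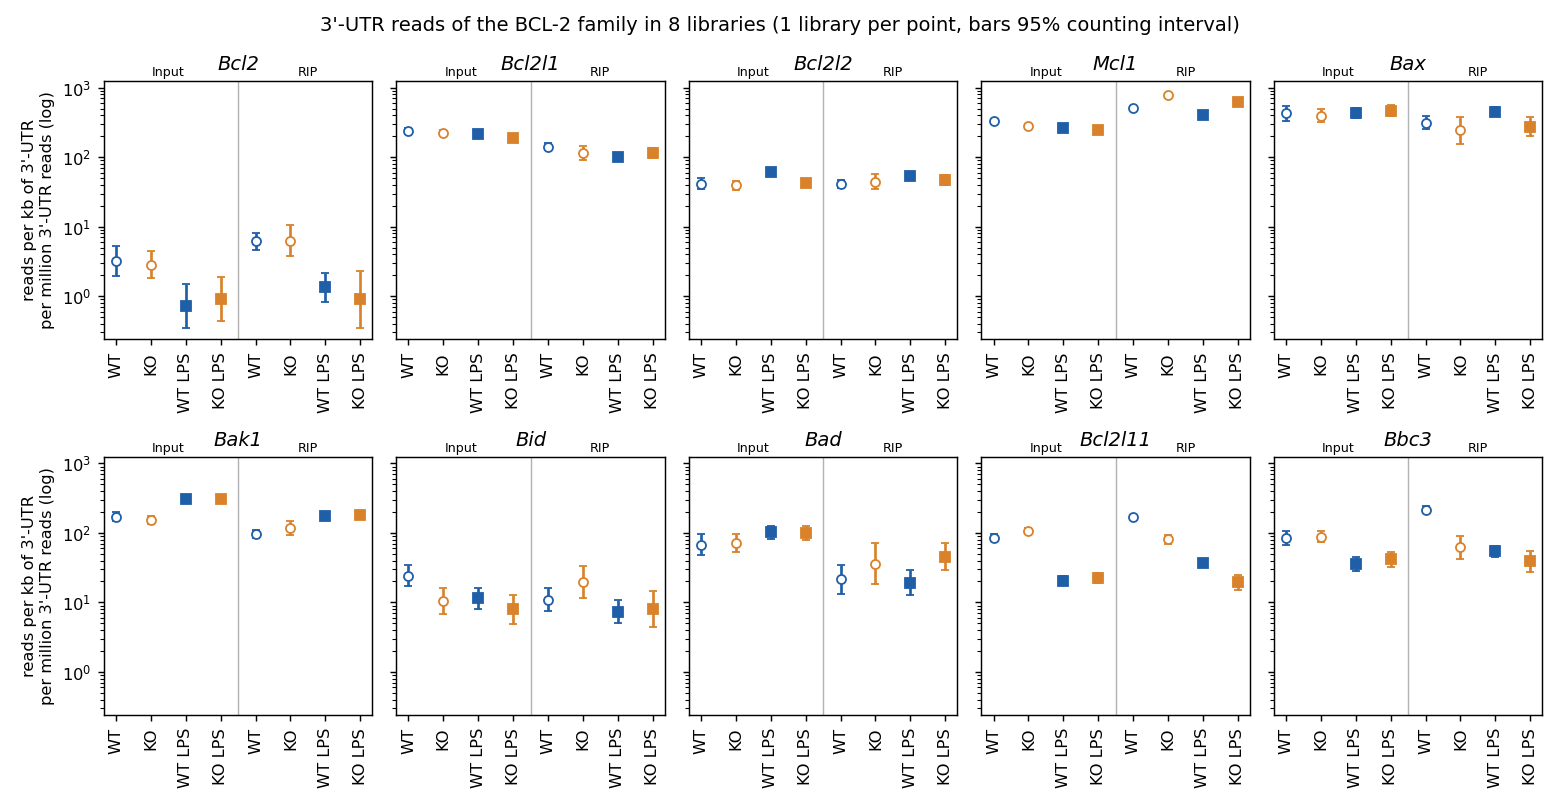
Level of each member in the 8 libraries, as CPM per kb of 3′-UTR on a log axis, for the region with the most reads (KO, *Cpeb4*-/-). Each point is 1 library with its 95% counting interval. The WT RIP of untreated cells stands above the other 7 libraries for *Bcl2l11* (167) and *Bbc3* (216), and the *Cpeb4*-/- RIPs stand above the WT RIPs for *Mcl1*, which turned on the authors' library totals.

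The WT over *Cpeb4*-/- comparison of the RIPs asks which mRNAs were recovered with CPEB4 beyond the background of the same antibody in cells without its antigen. *Bcl2l11* was called higher in the WT RIP at both conditions, and *Bbc3* in untreated cells only. *Mcl1* was called lower at both (on the authors' library totals this direction turned). No other member was called in its main 3′-UTR, apart from *Bad*, called lower after LPS. On this scaling the ratios of *Bad* and *Bid*, the other BH3-only members, were below 0 at both conditions. In untreated cells, 2 of the 10 members were called higher, against 6.91% of all genes tested. There were 3 called lower, *Mcl1*, *Bcl2l1* and *Bcl2l11*, against 11.4% of genes, the last 2 through minor regions. In LPS-treated cells, *Bcl2l11* was the 1 member called higher (11% of genes) and 3 were called lower (17.5% of genes), *Mcl1*, *Bad* and a minor region of *Bcl2l11*. These counts depended on the scaling. On the authors' library totals 4 (untreated) and 6 (LPS) members were higher and 0 lower, and with TMM factors 3 were higher and 0 lower after LPS. The median log2 ratio over the members' main regions was -0.11 (untreated) and 0.07 (LPS), beside -0.10 and -0.04 over all genes tested.

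*Bcl2l11* encodes BIM, the BH3-only protein that binds all survival members and is needed for the death of many blood cells after growth factor withdrawal. Its longest 3′-UTR (chr2:128158330-128162547, + strand, 4218 bases) had 1175 reads in the WT RIP and 160 in the *Cpeb4*-/- RIP of untreated cells, or 167 and 81.1 per kb. After LPS it had 385 and 71 reads, or 36.6 and 19.3 per kb. In the Inputs of untreated cells its levels were 85.7 (WT) and 107 (*Cpeb4*-/-), and in those of LPS-treated cells 20.5 and 22.3. The level in the WT RIP was therefore above that in the *Cpeb4*-/- RIP at both conditions. In the Inputs the order was the opposite in untreated cells, and after LPS the intervals overlapped (17.6 to 23.9 in WT, 18.9 to 26.2 in *Cpeb4*-/-). The levels in the RIPs and in the Inputs were all lower after LPS. The RIP ratio was 1.04 (0.80 to 1.27) in untreated cells and 0.91 (0.54 to 1.27) after LPS, that is 2.05-fold and 1.87-fold. Subtracting the log2 ratio of the Inputs gave an input-corrected ratio of 1.36 (1.05 to 1.67) and 1.03 (0.54 to 1.51). Where each of the 4 libraries held 10 or more reads (4471 and 5478 genes), 206 and 495 had a higher input-corrected ratio. The change of this ratio between conditions was -0.33 (-0.91 to 0.24).

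*Bbc3* encodes PUMA, a BH3-only protein known as a p53 target that can also be induced without p53. Its 3′-UTR (chr7:16317235-16318205, + strand, 971 bases) had 350 reads in the WT RIP and 28 in the *Cpeb4*-/- RIP of untreated cells, or 216 and 61.7 per kb. After LPS the reads were 131 and 33, or 54.1 and 39.0 per kb. The WT RIP of untreated cells was well above each of the other 7 libraries, none of which exceeded 88.5 per kb. The RIP ratio was 1.76 (1.22 to 2.31), a 3.40-fold difference, in untreated cells, and 0.44 (-0.10 to 0.98) after LPS, where it was not called. The input-corrected ratio was 1.83 (1.14 to 2.52) in untreated cells, with 44 of 4471 genes higher, and 0.67 (-0.07 to 1.40) after LPS, with 1066 of 5478 genes higher. The change of this ratio between the conditions was -1.16 (-2.17 to -0.16), for which no test was run. That of *Bcl2l1* was -0.56 (-1.08 to -0.03). The related differences of the *Bbc3* LPS change, given below, did not pass the adjusted Wald test. With the exact test of edgeR at a preset variation between libraries, the calls of *Bcl2l11* at both conditions and of *Bbc3* in untreated cells were lost.

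*Mcl1* encodes the survival protein MCL-1, whose mRNA and protein both turn over quickly. Its 3′-UTR (chr3:95660824-95663176, + strand, 2353 bases) was the member with the most reads, 1972 in the WT RIP and 870 in the *Cpeb4*-/- RIP of untreated cells (503 and 791 per kb) and 2341 and 1278 after LPS (399 and 623 per kb). The levels in the *Cpeb4*-/- RIPs were thus above those in the WT RIPs at both conditions, and those in the RIPs were above the 242 to 329 per kb of the 4 Inputs. The ratio was -0.65 (-0.77 to -0.54) in untreated cells and -0.64 (-0.74 to -0.54) after LPS. This direction rests on the 3′-UTR totals. On the authors' library totals the ratios were 0.19 and 0.50 and were not called, and with TMM factors they were -0.42 and -0.31 and were not called. With median-of-ratios factors the call was lost after LPS (-0.48). In relation to the other mRNAs of the same libraries, 3670 of 4471 (untreated) and 4125 of 5478 (LPS) genes had a higher input-corrected ratio than *Mcl1*, whose values were -0.89 (-1.07 to -0.71) and -0.76 (-0.92 to -0.60).

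**Figure D3:**
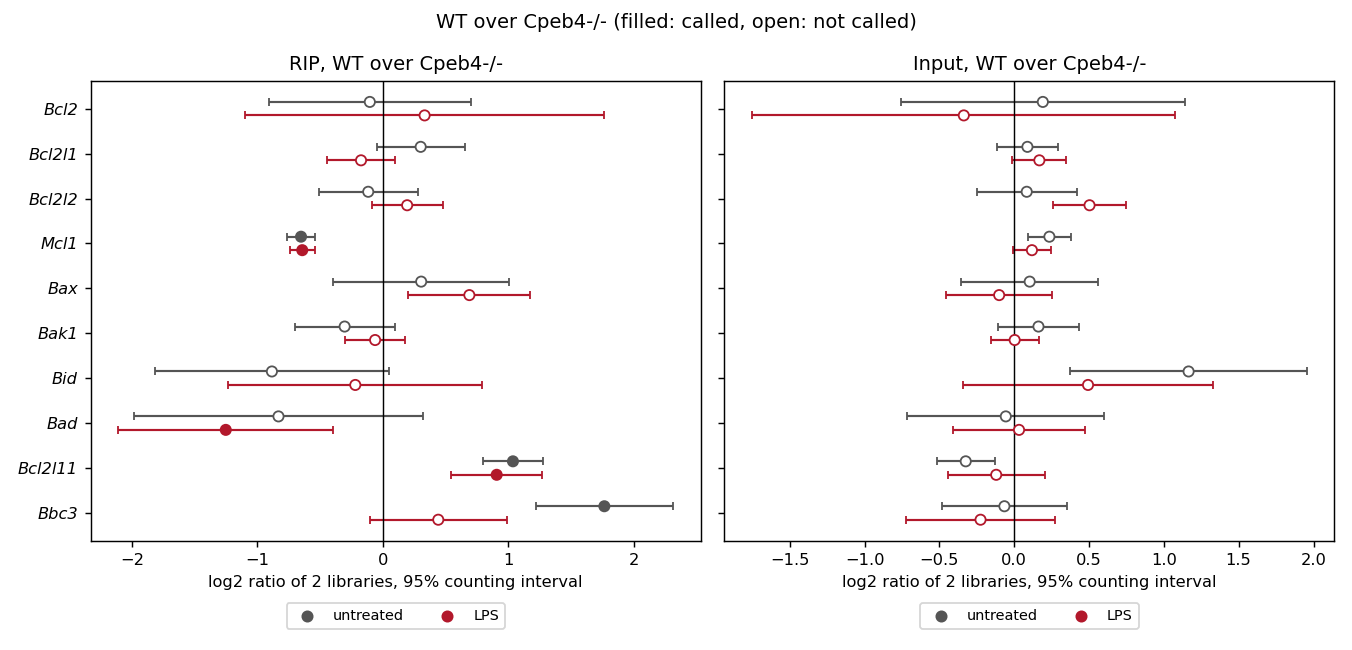
WT over *Cpeb4*-/- log2 ratio of the members in the RIPs (left) and the Inputs (right) of untreated and LPS-treated cells, with 95% counting intervals (filled points, called). *Bcl2l11* and *Bbc3* stand to the right of 0 in the RIPs (*Bbc3* not called after LPS). *Mcl1* stands to the left (to the right on the authors' library totals), and no member was called in the Inputs.

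Among the survival members other than *Mcl1*, ratios of the RIPs were small. *Bcl2l1* (chr2:152780668-152782144, - strand) encodes BCL-XL, and its RIP ratio was 0.30 (-0.05 to 0.65) in untreated cells and -0.17 (-0.45 to 0.10) after LPS. *Bcl2l2* (chr14:54884919-54888095, + strand) encodes BCL-W, and its values were -0.12 (-0.51 to 0.28) and 0.19 (-0.09 to 0.48). Its 2701-base region, which has CPEs shortly before its signals, had -0.09 (-0.50 to 0.33) and 0.22 (-0.07 to 0.51) and was not called. *Bcl2*, the founding member (chr1:106538178-106543263, - strand), had 52 and 15 reads in the RIPs of untreated cells and 17 and 4 after LPS, so that its intervals reached from -0.91 to 0.70 and from -1.10 to 1.76. Values within these bounds are compatible with the read counts, and variation between libraries is not part of the intervals.

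The effectors had no called ratio in the RIPs. *Bax* (chr7:45461695-45461861, - strand) had 188 reads in the WT RIP and 40 in the *Cpeb4*-/- RIP after LPS, a ratio of 0.69 (0.20 to 1.18) that missed the threshold but was called with TMM factors (1.02), on the authors' totals (1.83) and with Benjamini-Hochberg adjustment. In untreated cells the *Bax* ratio was 0.30 (-0.40 to 1.01). *Bak1* (chr17:27019812-27021035, - strand) had ratios of -0.31 (-0.70 to 0.09) and -0.06 (-0.30 to 0.17). On this scaling the *Bcl2l11* ratios lay outside these counting intervals. On the authors' library totals the *Bak1* ratios, like those of every region, are higher by 0.84 (untreated) and 1.14 (LPS). The *Bak1* region with the most reads belongs to a transcript annotated as subject to nonsense-mediated decay and shares 196 coding bases with other *Bak1* transcripts. Its 1121-base protein-coding counterpart had ratios of -0.16 and 0.02.

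The BH3-only mRNAs *Bad* and *Bid* had few reads. *Bad* (chr19:6951397-6951874, + strand), whose protein is held inactive by survival kinases, had 17 reads in the WT RIP and 8 in the *Cpeb4*-/- RIP of untreated cells, and 23 and 19 after LPS. The LPS ratio of -1.25 (-2.11 to -0.40) was just past the threshold of 1.2, the overlapping *Bad* regions of 369 and 374 bases were just short of it (-1.06 and -0.99), and the call was lost with TMM factors (-0.92), median-of-ratios factors (-1.09) and the authors' totals (-0.11). *Bid* (chr6:120892854-120894280, - strand), whose protein links death receptors to mitochondria once caspase-8 cleaves it, had 26 and 13 reads in the RIPs of untreated cells and 26 and 10 after LPS. Its ratios were -0.89 (-1.82 to 0.05) and -0.22 (-1.23 to 0.79). The other *Bid* region, of 628 bases, lies entirely in exons of *Bcl2l13* on the opposite strand, and the library kit did not mark strand, so its reads (at most 12 in a library) cannot be assigned. For the same reason 558 bases of the *Bcl2* 3′-UTR cannot be told apart from the antisense gene *D630008O14Rik*.

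The minor regions called lower in the WT RIP had few reads. The 1797-base alternative last exon of *Bcl2l11* (chr2:128129699-128131495), which lies in an intron of the transcript with the most reads, had 9 reads in both RIPs of untreated cells and 4 (WT) and 6 (*Cpeb4*-/-) after LPS, with ratios of -1.83 (-3.10 to -0.57) and -2.00 (-3.66 to -0.35). The corresponding intronic 1234-base region of *Bcl2l1* (chr2:152828127-152829360) had 15 and 12 reads in untreated cells and a ratio of -1.53 (-2.59 to -0.48). These regions moved in the opposite direction to the main *Bcl2l11* 3′-UTR of the same libraries. The summed 3′-UTR counts were a lower percentage of the library totals in the *Cpeb4*-/- RIPs, and the part of this in the result was not tested.

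Nested regions of *Bcl2l11* share a start, and the reads of the longer ones that do not touch the shorter ones show where along the 3′-UTR the RIP reads lay. In untreated WT cells, the RIP over Input log2 ratio was 0.42 (0.16 to 0.68) over the first 1796 bases, 1.19 (0.84 to 1.55) over bases 1797 to 2899 and 1.48 (1.15 to 1.81) over bases 2900 to 4218, which end with the CPE and signal shown above. The last stretch exceeded the first by 1.06 (0.64 to 1.47) in untreated and by 1.14 (0.49 to 1.78) in LPS-treated WT cells. In untreated *Cpeb4*-/- cells it also exceeded the first, by 0.90 (0.30 to 1.51), from -0.87 to 0.03, and after LPS by 0.18 (-0.79 to 1.16). The WT over *Cpeb4*-/- ratio of the RIPs was 0.95 (0.56 to 1.34) in the first and 1.26 (0.85 to 1.68) in the last stretch of untreated cells, a difference of 0.31 (-0.26 to 0.88). After LPS it was 0.40 (-0.11 to 0.91) and 1.21 (0.52 to 1.91), a difference of 0.82 (-0.05 to 1.68). The rise of RIP over Input towards the 3′ end was thus measured in untreated cells of both genotypes, and the intervals of the difference between stretches in the WT over *Cpeb4*-/- ratio included 0 at both conditions.

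RIP over Input shows what the precipitation enriched within each genotype. In untreated WT cells 3 members were higher in the RIP, *Mcl1*, *Bcl2l11* and *Bbc3* (24.7% of all genes tested), and 3 were lower, *Bcl2l1*, *Bak1* and *Bad* (22.8% of genes). In LPS-treated WT cells *Mcl1* and *Bcl2l11* were higher (26.4% of genes) and the same 3 were lower (30.2% of genes). In *Cpeb4*-/- cells *Mcl1* was the member whose main region was higher, untreated (15.9% of genes) and after LPS (18.1% of genes), and *Bcl2l1* was lower at both conditions (9.6% and 12.9% of genes). *Bak1* and *Bad* were also lower there after LPS, and shorter nested regions of *Bcl2l11* were lower in untreated cells. The intronic regions of *Bcl2l1* and *Bcl2l11* were called higher in the untreated *Cpeb4*-/- RIP, from 12 or fewer reads each.

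*Mcl1*, *Bcl2l11* and *Bbc3* stood to their Inputs differently in the genotypes. *Mcl1* was enriched in both genotypes, with log2 ratios of 0.61 (0.49 to 0.73) and 0.60 (0.50 to 0.70) in WT cells and of 1.50 (1.36 to 1.64) and 1.36 (1.24 to 1.49) in *Cpeb4*-/- cells, untreated and after LPS. *Bcl2l11* was enriched in WT cells, 0.96 (0.79 to 1.14) and 0.83 (0.57 to 1.10), and had ratios of -0.40 (-0.65 to -0.15) and -0.19 (-0.60 to 0.21) in *Cpeb4*-/- cells. *Bbc3* had ratios of 1.35 (0.99 to 1.70) and 0.58 (0.16 to 1.01) in WT cells and of -0.48 (-1.07 to 0.10) and -0.08 (-0.68 to 0.52) in *Cpeb4*-/- cells, of which the untreated WT value was called. *Mcl1* was therefore enriched over Input also in the library of cells without CPEB4. The differences between genotypes of these 3 members are the input-corrected ratios given above. In untreated cells all 3 passed the Wald test of the difference with Benjamini-Yekutieli adjustment, as 11.7% of the 6636 regions tested did, and after LPS *Mcl1* and *Bcl2l11* passed, as 18.9% of 8466 regions did. On the authors' totals the input-corrected ratio of *Mcl1* was -0.06 and 0.44. *Bid*, with 10 to 32 reads in each library, had -2.05 (-3.27 to -0.83) in untreated cells and did not pass. *Bcl2l1* was depleted in all 4 pairs, between -0.72 and -1.06. Its input-corrected ratio after LPS was -0.34 (-0.67 to -0.01), which did not pass the adjusted Wald test.

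**Figure D4:**
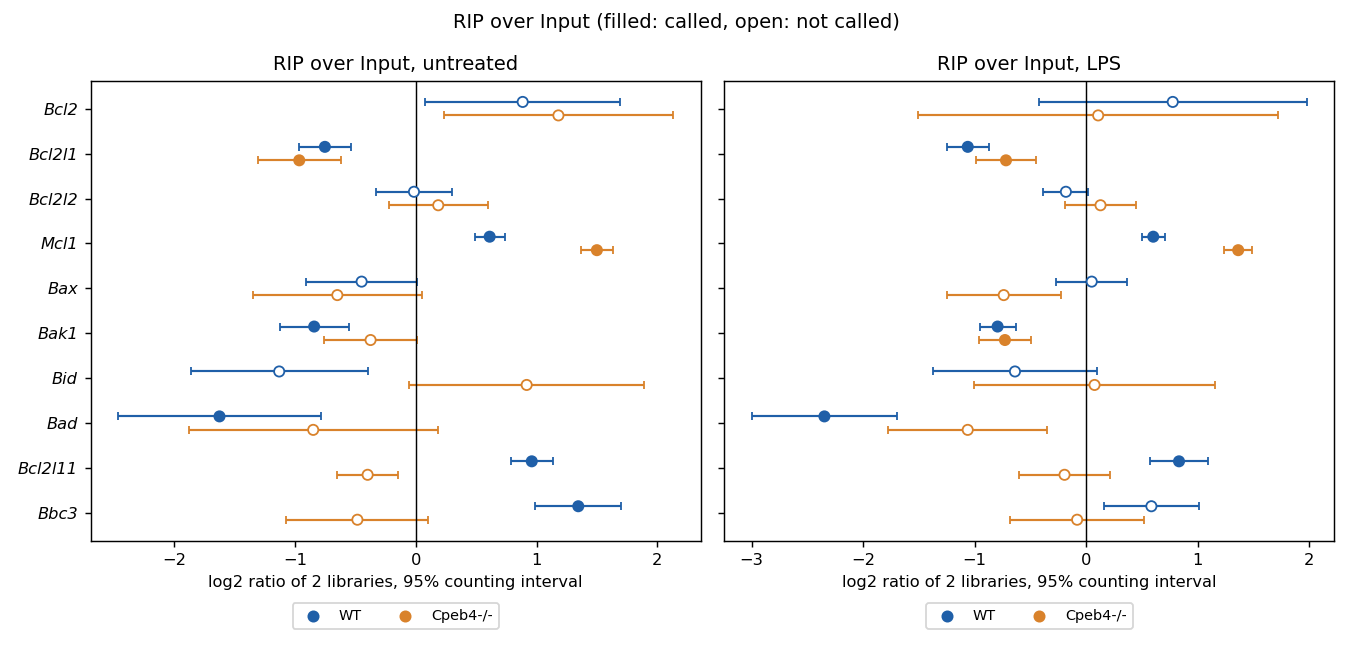
RIP over Input log2 ratio of the members in WT and *Cpeb4*-/- cells, untreated (left) and LPS-treated (right), with 95% counting intervals (filled points, called). *Bcl2l11* and *Bbc3* lie to the right of 0 in WT cells and at or to the left of 0 in *Cpeb4*-/- cells, and *Mcl1* lies to the right of 0 in both, further in *Cpeb4*-/- cells (after LPS, less far on the authors' library totals).

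The Inputs show how LPS changed the amounts of the family mRNAs. The pro-apoptotic *Bcl2l11* and *Bbc3* and the survival gene *Bcl2* fell in both genotypes, and the effector *Bak1* rose in both. Of the 10 members, 3 fell in WT cells (17% of all genes tested) and in *Cpeb4*-/- cells (20.5% of genes), and they were the same 3. In WT cells 2 rose, *Bak1* and *Bcl2l2* (14.3% of genes), and in *Cpeb4*-/- cells *Bak1* was the 1 that rose (15.1% of genes). The members' median was -0.25 in WT and -0.23 in *Cpeb4*-/- cells, beside -0.08 and -0.18 over all genes tested. In bulk Inputs, a change in the cells present and a change per cell cannot be told apart.

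*Bcl2l11* fell by 2.06 (interval -2.33 to -1.79) on the log2 scale in WT cells, from 85.7 to 20.5 per kb, and by 2.26 (-2.53 to -2.00) in *Cpeb4*-/- cells, from 107 to 22.3 per kb. *Bbc3* fell by 1.23 (-1.70 to -0.76) and 1.07 (-1.52 to -0.63), from 84.2 to 35.8 and from 88.5 to 41.8 per kb. *Bcl2* fell by 2.03 and 1.50, but from 15 and 19 reads to 7 in both. *Bak1* rose by 0.82 (0.59 to 1.04), from 171 to 303 per kb, and by 0.98 (0.76 to 1.19), from 153 to 302 per kb. Of these 4 genes, the untreated and LPS intervals of the levels did not overlap in either genotype for *Bcl2l11*, *Bbc3* and *Bak1*, and for *Bcl2* they overlapped in *Cpeb4*-/- cells only.

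*Mcl1* had LPS changes of -0.32 (-0.46 to -0.19) in WT and -0.21 (-0.34 to -0.07) in *Cpeb4*-/- Inputs and *Bcl2l1* of -0.18 and -0.26, all short of the threshold of 0.5. *Bax* had changes of 0.02 (-0.40 to 0.44) and 0.23 (-0.17 to 0.62). *Bad* had 0.55 and 0.47, with intervals that included 0 in both genotypes. *Bcl2l2* rose by 0.54 (0.24 to 0.83) in WT cells, from 41.7 to 60.7 per kb, and had a change of 0.12 (-0.18 to 0.41) in *Cpeb4*-/- cells. The difference between genotypes, 0.42 (0.00 to 0.84), did not pass the adjusted Wald test. No testable member passed it, beside 0.628% of 8439 regions, and *Bcl2* had too few reads to be tested. The *Bcl2l2* call in WT cells was lost when no read minimum was set and more regions were adjusted for.

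No member was called between the Inputs of the genotypes, against 1.13% of genes higher and 1.68% lower in untreated cells and 1.73% and 1.58% after LPS. *Mcl1* had WT over *Cpeb4*-/- ratios of 0.24 (0.09 to 0.38) and 0.12 (-0.01 to 0.25), and *Bcl2l11* of -0.32 (-0.52 to -0.13) and -0.12 (-0.44 to 0.20). *Bid*, with 32 and 20 reads in untreated cells, had 1.17 (0.38 to 1.95), just under the threshold of 1.2. *Bcl2l2* had 0.50 (0.26 to 0.75) after LPS, at the threshold of 0.5, and was called with Benjamini-Hochberg adjustment or a minimum of 50 reads.

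In the RIPs, the LPS changes followed those of the Inputs for most members. *Bcl2* and *Bcl2l11* fell in both genotypes and *Bbc3* in WT cells, with an intronic *Bcl2l1* region also called in each (WT, 22.9% of genes, 4 members in all; *Cpeb4*-/-, 17.6% of genes, 3 members). *Bak1* rose in the WT RIP by 0.86 (0.63 to 1.10), the 1 member to do so (14.3% of genes), and had 0.62 (0.22 to 1.02) in the *Cpeb4*-/- RIP, where none was called (12.5% of genes). *Bcl2l11* fell by 2.19 (-2.35 to -2.02) in the WT RIP and by 2.06 (-2.46 to -1.66) in the *Cpeb4*-/- RIP, close to its Inputs. *Bbc3* fell by 1.99 (-2.28 to -1.70) in the WT RIP and had -0.67 (-1.38 to 0.05) in the *Cpeb4*-/- RIP. The difference between genotypes for *Bbc3* was -1.32 (-2.09 to -0.55), and 4424 of 4460 genes had a higher value, but it did not pass the adjusted Wald test, which 0.599% of 6683 regions did. Within WT cells, the LPS change of *Bbc3* was lower by 0.76 in the RIP than in the Input (-0.76, -1.31 to -0.21), which did not pass that test either.

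**Figure D5:**
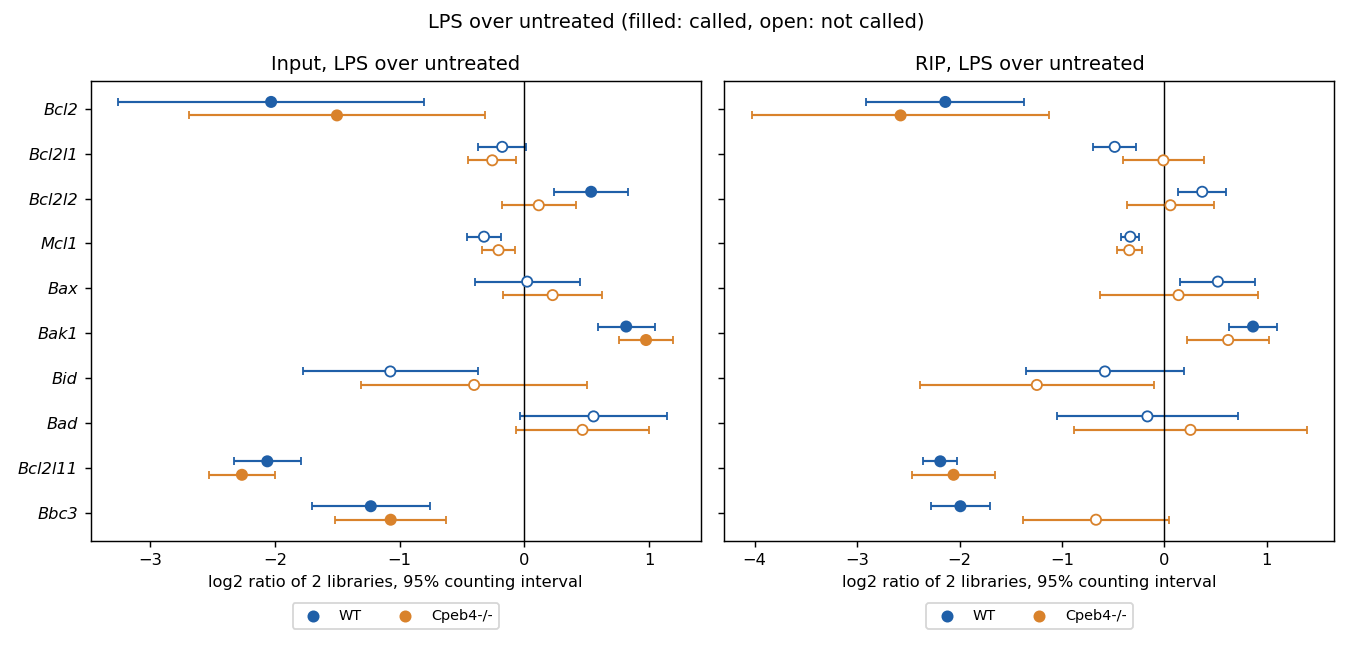
LPS over untreated log2 ratio of the members in the Inputs (left) and the RIPs (right) of WT and *Cpeb4*-/- cells, with 95% counting intervals (filled points, called). *Bcl2l11* lies near -2 in all 4 pairs of libraries, *Bak1* lies to the right of 0 in all 4, and *Bbc3* differs between the RIPs.

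The other genes of the pathway were counted from a list of 37 genes (other BCL-2 family members, apoptosome and caspases, death receptors and inhibitors), of which 34 were in the tables. Between the RIPs of untreated cells 2 of 26 tested were higher in WT, *Casp2* and *Cflar* (6.91% of all genes), and 3 were lower (11.4% of all genes). After LPS 2 of 29 were higher, *Casp2* and *Xiap* (11% of all genes), and 4 were lower (17.5% of all genes). *Casp2*, an initiator caspase, had 208 (WT) and 23 (*Cpeb4*-/-) RIP reads in untreated cells and 163 and 25 after LPS, with ratios of 1.29 (0.68 to 1.90) and 1.14 (0.54 to 1.74). *Cflar*, which encodes the caspase-8 inhibitor c-FLIP, had 813 and 152 reads and a ratio of 0.58 (0.33 to 0.83) in untreated cells. *Xiap*, a direct caspase inhibitor, had 1086 and 237 reads after LPS and a ratio of 0.68 (0.47 to 0.88). Of those called lower, *Birc5* (survivin), with 20 and 13 reads and -1.25 (-2.22 to -0.27) in untreated cells, was the 1 called through its main region. *Tradd*, *Birc3*, *Birc6* and *Apaf1* were called through minor regions with at most 17 reads in a RIP, and *Tnfrsf1b* through a region with 234 and 131 reads, -0.68 (-0.99 to -0.38). None of the listed genes was called between the Inputs of the genotypes. In the Inputs, 12 of 29 rose with LPS in WT and 12 of 27 in *Cpeb4*-/- cells, beside 14.3% and 15.1% of all genes, and 2 and 4 fell, beside 17% and 20.5%. The WT count of genes that rose includes *Bcl2a1a*, *Bcl2a1b* and *Bcl2a1d*, near-identical copies whose reads cannot be told apart. They reached the read minimum through their reads after LPS, so this count is not a measure of excess over all genes.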

How the data were processed

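According to the study's methods and labels, the authors crosslinked the cells with formaldehyde, sonicated the lysates, depleted the Inputs of ribosomal RNA, aligned reads to mm10 with Bowtie2 (version 2.2.2, per the submitters' processing notes) in local mode, removed duplicated alignments by sambamba, and used countOverlaps for the reads on each Ensembl 3′-UTR. The deposited counts are raw reads per region, summed over lanes, and overlapping isoforms count a read more than once. The authors' RPKM divide the deposited counts by length and a library total, and were used here only to recover that total. The width column deposited by the authors, used to scale levels, is a length in bases. Of 31117 rows, 495 without a symbol (0.902% to 1.04% of reads) were left out. Columns holding the authors' own fold changes, p-values and peak scores were not used. Duplicate coordinates of a gene were removed before the tests, but not from the 3′-UTR totals.

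Each pair of libraries was compared by a two-sided Pearson chi-square test. The Benjamini-Yekutieli adjustment covered every distinct region that held 10 or more reads in that pair. The numeric cutoffs were those of the study's methods, without the peak score. The study set them on ratios of RPKM, which use library totals. Here they were set on ratios scaled to the 3′-UTR totals, so the calls are not those of the study. Differences of ratios had a Wald test on 4 libraries with at least 10 reads in each (adjusted p under 0.02). Intervals of levels are Wilson and those of ratios normal intervals. Pairs in which neither library exceeded 3 reads got no ratio. The region with the most reads is called the main region, and all 26 were analysed. Sequences came from GRCm38.p6 and transcripts from GENCODE M21. The members, lists and nested stretches were chosen with earlier results of these data known. Scripts ran in Python 3.11.15 (scipy 1.17.1) and R 4.3.3 (edgeR 4.0.16, DESeq2 1.42.0), and the test was tried on simulated data. The alternatives were TMM and median-of-ratios scaling, the authors' library totals, 0.1 reads added, a minimum of 50 or no reads, edgeR's exact test at an assumed coefficient of variation between libraries of 0.4, and Benjamini-Hochberg adjustment.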

Additional observations from a re-analysis of the deposited data

How the results depend on the processing

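Of the counts of members called, 147 stayed within 1.5 times the reported count and 45 did not. With TMM factors, 3 members were higher and 0 lower between the RIPs after LPS, and 3 (WT) and 1 (*Cpeb4*-/-) rose in the RIPs with LPS. With median-of-ratios factors, 0 were lower between the RIPs after LPS, and again 3 and 1 rose in the RIPs. On the authors' library totals, 4 (untreated) and 6 (LPS) members were higher and 0 lower between the RIPs, 4 were higher in the RIP than in the Input of LPS-treated WT cells, 6 were lower in both *Cpeb4*-/- pairs, and 3 and 1 rose in the RIPs. With at least 50 reads, 1 member (*Mcl1*) was lower between the RIPs at both conditions, 1 was higher in the untreated *Cpeb4*-/- RIP than in its Input, 1 fell in the *Cpeb4*-/- RIP and 1 was higher in the WT Input after LPS. With no minimum, 1 rose in the WT Input. With Benjamini-Hochberg adjustment, 2 were higher between the RIPs after LPS, 2 (WT) and 1 (*Cpeb4*-/-) rose in the RIPs and 1 was higher in the WT Input after LPS. With the exact test of edgeR and a preset variation of 0.4, *Bcl2l11* was the 1 member that fell with LPS in both Inputs and in the WT RIP, *Bad* was the 1 lower in the RIP than in the Input of LPS-treated WT cells, and all other counts were 0. The cause was not tested.

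Directions turned for ratios near 0 or under the library totals. With TMM factors, the untreated RIP ratio was 0.13 for *Bcl2* and 0.12 for *Bcl2l2*, and after LPS it was 0.16 for *Bcl2l1*, 0.27 for *Bak1* and 0.11 for *Bid* (input-corrected *Bcl2l1*, 0.020). With median-of-ratios factors, *Bak1* after LPS was 0.10, and the differences of the Input LPS change were -0.019 (*Bcl2l1*) and -0.010 (*Bad*). On the library totals, the untreated ratios were 0.74 (*Bcl2*), 0.72 (*Bcl2l2*), 0.19 (*Mcl1*), 0.54 (*Bak1*) and 0.0092 (*Bad*), and those after LPS 0.97 (*Bcl2l1*), 0.50 (*Mcl1*), 1.08 (*Bak1*) and 0.92 (*Bid*). The input-corrected values after LPS were then 0.86 (*Bcl2l1*) and 0.44 (*Mcl1*), and the difference of the RIP LPS change was 0.17 for *Bcl2l11*. The RIP ratios of *Bcl2l11* and *Bbc3* were above 0 under every alternative run, but the calls were lost with the exact test of edgeR, and *Bbc3* after LPS was called on the library totals only (1.58). No paired analysis was possible because each genotype, treatment and assay had 1 library, whose lanes are summed. Depth limits *Bcl2*, *Bid* and *Bad* most, with 4 to 92 reads per library.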

Other observations

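Family members outside the 10 showed larger LPS changes in the Inputs, and the genes named here were chosen after their values were seen. *Bmf*, a BH3-only gene, had 97 reads in the untreated and 17 in the LPS-treated WT Input, and 158 and 9 in the *Cpeb4*-/- Inputs. It was called lower in both, with log2 ratios of -3.47 (interval -4.20 to -2.75) and -4.17 (-5.09 to -3.25), and it was also called lower in both RIPs. *Bnip3*, a mitochondrial BH3-like gene known as a hypoxia target, was called higher in both genotypes, with 30 and 445 reads in the WT and 47 and 453 in the *Cpeb4*-/- Inputs. The survival gene *Bcl2a1b* went from 2 to 45 and from 2 to 27 reads. Its near-identical copies *Bcl2a1a* and *Bcl2a1d* had no reads in the untreated Inputs and 22 and 25 reads in the LPS-treated WT Input. Reads of the 3 copies cannot be told apart. Where they had enough reads to be tested, these genes were not called between the WT and *Cpeb4*-/- RIPs.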
